A study of Saccharomyces cerevisiae with 95 samples.

Results

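The mating-type specific genes of budding yeast were followed through the occupancy of general transcription factors at their promoters. The 8 genes were STE2, STE6, MFA1, MFA2, BAR1, AGA2, STE3 and FUS1. A member site was the site of a factor whose midpoint was nearest to the annotated start of the gene, from 500 bp upstream to 200 bp downstream. The rule found 8 of 20232 sites, 5 for TFIIA and 3 for TFIIB, at 6 of the 8 genes. The genes were chosen by the TFIIB values at STE2, whose HA/Myc ratio fell over time, so every TFIIB value at STE2 is given below as a description with no test.

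Competition ChIP-seq was carried out in diploid W303 cells carrying 2 tagged copies of a factor. The copy of TBP, TFIIA, TFIIB, TFIIE or TFIIF with 9xMyc stayed under its endogenous promoter, and the other copy, with 3xHA, was placed under GAL1 and was induced when galactose was added to cells growing in raffinose. In the TFIIA, TFIIE and TFIIF strains only a single subunit carried a tag, and a copy of each subunit was under GAL1. Each strain was made by mating haploid segregants of the HA-tagged and Myc-tagged diploids. For every factor and tag there was 1 library at each of 8 times from 10 to 120 min after galactose, and TFIIB had a further Myc library at 0 min. A time course was 1 culture, so the error of every trend is the scatter of time points about it and carries no replicate of the experiment.

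Haploid yeast cells are of mating type a or alpha, and each type makes a pheromone and the receptor for the pheromone of the other type. In a/alpha diploids the alpha2 protein, together with the MADS-box protein Mcm1, represses the a-specific genes through an operator in their promoters. The alpha1 activator is not made in diploids, which leaves the alpha-specific genes inactive, and the a1-alpha2 repressor shuts off the haploid-specific genes. Transcription factor TFIIB joins TBP and TFIIA at the promoter and bridges them to RNA polymerase II. The tables held no RNA, so the silence of these genes was not measured here.

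The operator stretches of the 6 a-specific members are shown as a description. The pattern was written after the alpha2 and Mcm1 operator of a-specific genes, so its presence at such genes is no test. The pattern searched was CATGT, then 4 to 7 bases of any kind, CC, 6 bases of any kind and GG, on both strands of the 500 bp upstream of the coding start. CATGT is the core of an alpha2 binding site, and CC with GG frame the Mcm1 site. It was present upstream of 6 of 6 a-specific members and of the further a-specific gene ASG7, against 35 of 6000 protein-coding promoters (0.583%). It was not present upstream of STE3 or FUS1. The sequences come from the RefSeq R64 genome, which is sacCer3, and each runs 5′ to 3′ along the strand of its gene with the fixed bases of every match in capitals. STE2 lies at chrVI:82348-82389 on the plus strand, STE6 at chrXI:46480-46510 on the minus strand, MFA1 at chrIV:1384949-1384980 on the plus strand, MFA2 at chrXIV:352160-352201 on the plus strand, BAR1 at chrIX:322075-322115 on the plus strand and AGA2 at chrVII:437104-437134 on the minus strand.
STE2: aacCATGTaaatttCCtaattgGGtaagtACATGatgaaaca
STE6: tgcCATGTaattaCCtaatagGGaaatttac
MFA1: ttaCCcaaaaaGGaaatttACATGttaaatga
MFA2: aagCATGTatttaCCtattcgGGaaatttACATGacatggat
BAR1: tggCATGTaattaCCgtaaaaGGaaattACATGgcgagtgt
AGA2: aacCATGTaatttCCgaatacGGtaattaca

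The promoters of the 3 genes with a TFIIB site are shown from 260 to 61 bp upstream of the coding start, with the operator pattern, TGAAACA (the letters of the element bound by the pheromone-response factor Ste12) and TATAAA in capitals. These motifs were searched on both strands, and no motif overlapped a different motif in these stretches. TGAAACA occurred in 721 of 6000 upstream regions of 500 bp and TATAAA in 3629. The stretches are chrVI:82320-82519 on the plus strand for STE2, chrXIV:352154-352353 on the plus strand for MFA2 and chrXI:114688-114887 on the minus strand for STE3.
STE2: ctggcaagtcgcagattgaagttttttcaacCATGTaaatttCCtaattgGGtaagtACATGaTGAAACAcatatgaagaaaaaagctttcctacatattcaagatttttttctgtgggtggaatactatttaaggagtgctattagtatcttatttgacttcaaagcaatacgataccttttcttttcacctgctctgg
MFA2: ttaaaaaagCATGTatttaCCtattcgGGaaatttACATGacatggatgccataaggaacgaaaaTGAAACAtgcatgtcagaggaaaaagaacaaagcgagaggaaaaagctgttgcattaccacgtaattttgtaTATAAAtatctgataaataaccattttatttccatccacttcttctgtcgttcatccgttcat
STE3: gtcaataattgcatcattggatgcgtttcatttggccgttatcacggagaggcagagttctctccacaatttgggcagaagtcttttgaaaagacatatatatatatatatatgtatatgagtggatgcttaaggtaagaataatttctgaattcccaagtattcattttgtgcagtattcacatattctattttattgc
The STE3 stretch held none of the 3 motifs, which says only that these letters are not in this window.

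The sites of the 3 genes with TFIIB were compact and lay over the coding start and the bases just upstream of it. The TFIIB site of STE2 ran from 82389 to 82609 on chromosome VI with its midpoint 81 bp upstream of the start, and the operator ended 8 bp before the site began. The TFIIB site of MFA2 ran from 352223 to 352467 on chromosome XIV with its midpoint 69 bp upstream, and its operator ended 30 bp before the site. The TFIIB site of STE3 ran from 114622 to 114867 on chromosome XI with its midpoint 117.5 bp upstream. Positions of sites are as the deposited tables give them, on sacCer3.

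The TFIIA sites were more varied in width. The site of STE2, from 81861 to 82804, also reached the start of the neighboring gene GYP8, and the site of STE6, from 46240 to 47146 on chromosome XI, overlapped the tRNA gene TRT2 and had the start of CBT1 within the same window, so the signal of these wide sites cannot be given to a single gene. The TFIIA site of MFA2 ran from 352043 to 352595, that of MFA1 from 1385009 to 1385192 on chromosome IV and that of AGA2 from 436848 to 437107 on chromosome VII. The operator lay inside the TFIIA sites of STE2, STE6 and MFA2, 37 bp beyond the edge of the MFA1 site and 5 bp beyond the edge of the AGA2 site.

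**Figure D1:**
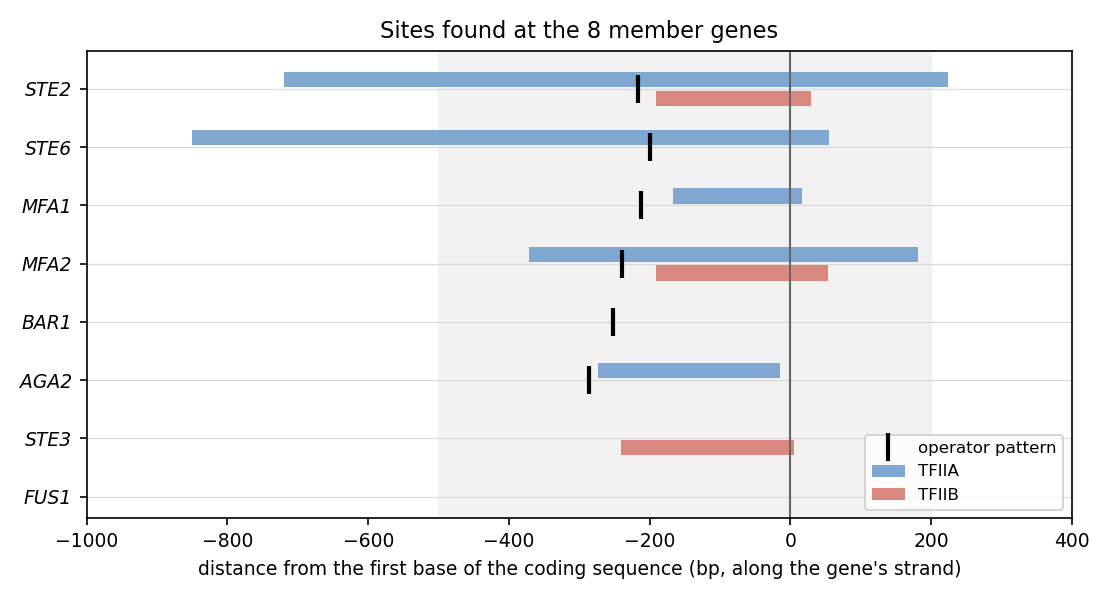
Position of the 8 member sites relative to the coding start of each gene (x axis, bp along the strand of the gene; one line per gene; bars, extent of TFIIA and TFIIB sites; black ticks, operator pattern; gray band, the window from 500 bp upstream to 200 bp downstream). The 3 TFIIB bars lie close to the start, and BAR1 and FUS1 have no bar.

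No site of any factor had its midpoint in the window of BAR1, whose protease degrades alpha-factor, or of FUS1, a membrane protein of cell fusion that pheromone induces. By this midpoint rule no member had a site in the tables of TBP, TFIIE or TFIIF. The widest distance inside the window was 398 bp, for STE6 in TFIIA. The nearest midpoints just outside it were at 540 bp for AGA2 and 572.5 bp for STE6 in TBP, 601 bp for STE2 in TFIIE and 714 bp for BAR1 in TFIIA. These sites themselves reached into the window. That of BAR1 ran from 320894 to 322362 on chromosome IX, across the coding start at 322342. Its mean Myc level, as defined below, was −0.19 and its mean HA level −0.38. A gene with no site by the rule was not followed further. Sites were called by the authors on early Myc libraries, so a site with more Myc than HA signal is favored over the opposite by this construction.

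The level of a site was the log2 of its read count per bp minus the median of all nuclear sites in the same library, so 0 is the typical site and 1 is a doubling over it. A library mixes all cells of the culture, so fewer cells with the factor bound and lower occupancy per cell cannot be told apart. A level is also relative, so a loss of signal at a site and a gain at the other sites cannot be told apart. The HA copy was still building up after galactose, and the 10 min library came early in this induction. Total counts in sites were 4210899 to 10142158 per TFIIA library and 5481265 to 18599396 per TFIIB library, and single member sites held from 135 to 3884 reads. The spread of levels over all sites (SD) was 0.51 in the TFIIB HA library at 10 min and 0.75 to 0.96 in the later 7 HA libraries, against 0.89 to 1.16 in the 9 TFIIB Myc libraries. In the TFIIA libraries it was 0.37 to 0.50.

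STE2 encodes the receptor for alpha-factor and is made in a cells. Its TFIIB HA level was 0.16 at 10 min, −1.21 at 20, −1.09 at 25, −1.58 at 30, −1.72 at 40, −1.35 at 60, −1.96 at 90 and −2.83 at 120 min. The Myc level was −0.28 at 0 min, −0.33 at 10, −0.21 at 20, 0.13 at 25, 0.63 at 30, 0.49 at 40, 1.35 at 60, 1.05 at 90 and 0.68 at 120 min. Relative to the typical site of each library, the tags therefore moved apart in opposite directions. The HA level was above the Myc level at 10 min and below it at the other 7 times. Whether bound HA copy was lost from the site was not tested. The difference of HA from Myc was 0.49 at 10 min and −3.51 at 120 min. The site was at percentile 65.4 of all TFIIB sites in the HA library at 10 min and at percentile 0.0992 in its lowest HA library, where 135 reads were counted. The 8 Myc libraries from 10 min on placed it between percentiles 29.2 and 89.3.

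The fitted slopes of STE2 in TFIIB, in log2 units per doubling of time, were −1.06 ± 0.12 (SE) for the HA/Myc ratio, 0.41 ± 0.09 for Myc and −0.66 ± 0.14 for HA. These values belong to the contrast that chose the genes. Without the 10 min libraries the ratio slope was −0.92 and the HA slope −0.50. With a loess offset on the average level the HA slope was −0.34.

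MFA2 encodes a precursor of a-factor, the pheromone secreted by a cells. Its TFIIB HA level was −0.22 at 10 min, −1.56 at 20, −1.85 at 25, −2.22 at 30, −1.60 at 40, −1.97 at 60, −1.71 at 90 and −1.77 at 120 min. The Myc level was 0.05 at 0 min, −0.41 at 10, −0.10 at 20, −0.41 at 25, 0.26 at 30, 0.45 at 40, 0.77 at 60, 0.50 at 90 and 0.18 at 120 min. The HA level was −1.56 or lower at each of the 7 times after 10 min, and the Myc libraries from 10 min on placed the site between percentiles 25.5 and 79.8.

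STE3 is the receptor for a-factor and is made in alpha cells, so it is the member whose expression needs the opposite mating type. Its TFIIB HA level was −0.14 at 10 min, −1.64 at 20, −1.66 at 25, −2.50 at 30, −1.16 at 40, −2.23 at 60, −2.63 at 90 and −2.27 at 120 min. The Myc level was −0.14 at 0 min, −0.32 at 10, −0.08 at 20, 0.46 at 25, 0.66 at 30, 0.36 at 40, 0.50 at 60, 0.05 at 90 and 0.24 at 120 min. As at MFA2, HA was below Myc at the 7 times after 10 min, and Myc stayed within 0.66 of the typical site.

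**Figure D2:**
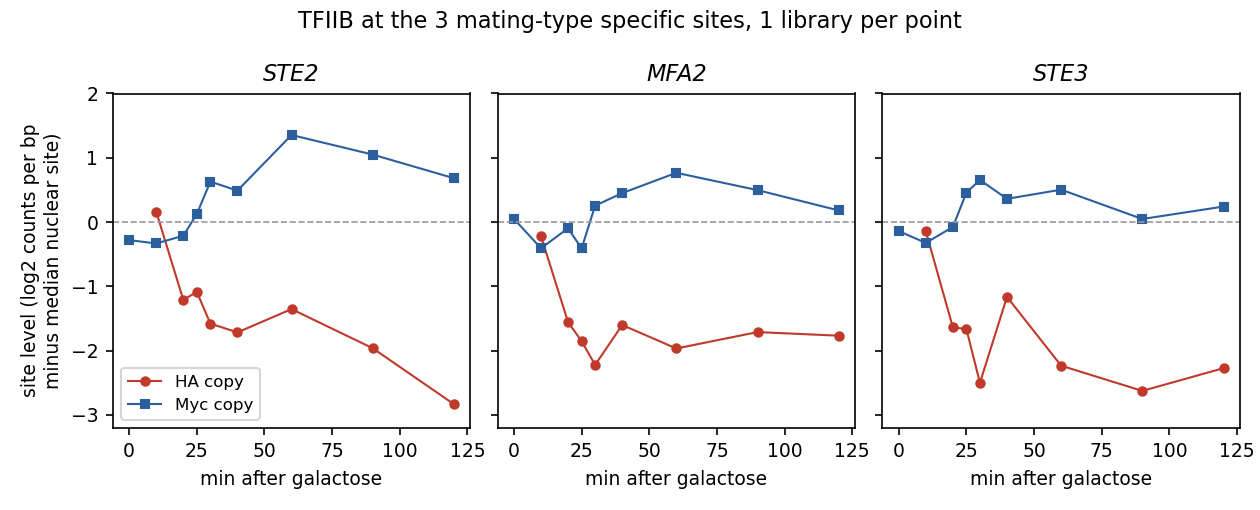
TFIIB site level (y axis, log2 counts per bp minus the median nuclear site) against time after galactose (x axis, min) at STE2, MFA2 and STE3, HA copy in red circles and Myc copy in blue squares, 1 library per point. The HA and Myc points meet at 10 min and do not overlap from 20 min on.

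From 20 to 120 min every HA level lay below every Myc level at all 3 sites. Over all 4033 TFIIB sites, 78 (1.93%) had this separation. With the 10 min libraries included no member kept it, and 48 sites (1.19%) did. The mean HA level minus the mean Myc level over the 8 times was −2.01 ± 1.05 (SD over 8 times) at STE3, −1.92 ± 1.29 at STE2 and −1.77 ± 0.91 at MFA2, and the median of all sites was −0.03. Counted from the lowest of 4033 sites these were ranks 4, 5 and 6, and the differences among them were smaller than the spread over time points. The STE2 value is part of what chose the genes.

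The slopes of the other TFIIB members were tested by edgeR over all sites of the factor. The HA slope of STE3 was −0.57 ± 0.16 (SE; adjusted p = 0.0393), so HA fell there relative to the scaled library, against 8.7% of all sites called in either direction. The HA slope of MFA2 was −0.36 ± 0.15 (adjusted p = 0.143), and −0.0097 without the 10 min library (adjusted p = 0.983). The STE3 call was lost with a loess offset (adjusted p = 0.328), with linear time (0.208) and without the libraries of 10 min (0.347), 20 min (0.0533), 40 min (0.0512), 60 min (0.08) or 90 min (0.11). The 10 min library, which had the narrowest spread of levels, is also the 1 with the highest HA level at all 3 sites, and its part in the slope is seen in the value without it, −0.32.

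The ratio slope was −0.64 ± 0.18 at STE3 (adjusted p = 0.0754) and −0.56 ± 0.16 at MFA2 (adjusted p = 0.0915), so 0 of 2 tested sites passed the threshold by edgeR, where 1.21% of all sites did. Both sites had an unadjusted p under 0.05 by edgeR, as did 681 of all 4033 sites. Both were also called by the DESeq2 Wald test (adjusted p = 0.0119 and 0.0155). With a loess offset both passed at an adjusted p of 0.0456. STE3 also passed without the 30 min libraries (0.0266) and MFA2 without the 120 min libraries (0.0362). The shares of all sites called by DESeq2 and in these other settings are not given here. Without the 10 min libraries the ratio slope was −0.28 at STE3 (adjusted p = 0.512) and −0.23 at MFA2 (adjusted p = 0.557).

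The Myc slope was 0.25 ± 0.09 at MFA2 (adjusted p = 0.0551) and 0.08 ± 0.09 at STE3 (adjusted p = 0.545), so 0 of 2 were called by edgeR beside 20.2% of all sites, with 1 at an unadjusted p under 0.05 and 1 called by DESeq2. By edgeR 1377 of all 4033 sites had an unadjusted p under 0.05. MFA2 passed under DESeq2 size factors (0.0482), a loess offset (0.0464), the DESeq2 Wald test (0.0141) and without the 120 min library (0.0202). Shares of all sites for these settings are not given here either. Without the 10 min library the Myc slope was 0.22 at MFA2 (adjusted p = 0.259) and −0.06 at STE3 (adjusted p = 0.774). The mean level over the 8 times was 0.15 for Myc and −1.61 for HA at MFA2, and 0.23 for Myc and −1.78 for HA at STE3.

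**Figure D3:**
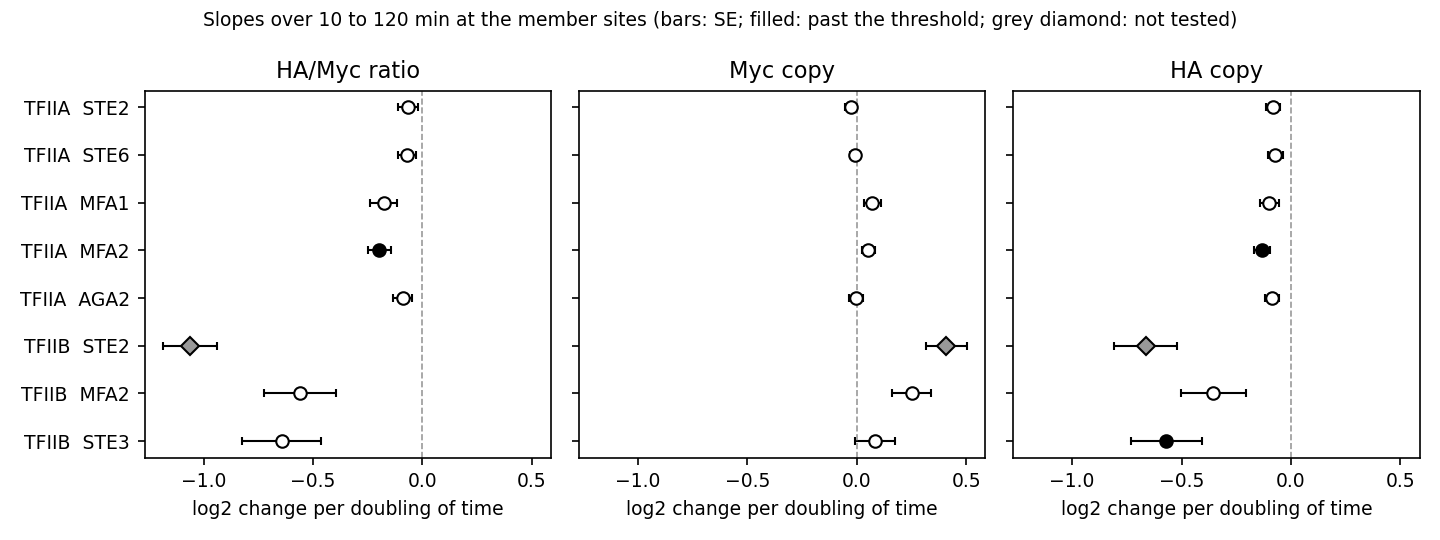
Slopes at the 8 member sites (x axis, log2 change per doubling of time; error bars, SE) for the HA/Myc ratio, the Myc copy and the HA copy. Filled circles passed the threshold, open circles did not, and gray diamonds are STE2 in TFIIB, which was not tested. The filled points are MFA2 in TFIIA for the ratio and HA, and STE3 in TFIIB for HA.

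TFIIA stood closer to the typical site at the members, and its libraries separated sites less than those of TFIIB. At STE2 the TFIIA HA level was −0.21 at 10 min, −0.24 at 20, −0.46 at 25, −0.48 at 30, −0.54 at 40, −0.45 at 60, −0.63 at 90 and −0.45 at 120 min. The Myc level there was 0.19, 0.02, −0.02, 0.06, 0.21, 0.08, 0.02 and 0.01 at the same times. HA was below Myc at every time with no overlap of the groups.

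At MFA2 the TFIIA HA level was −0.06 at 10 min, −0.08 at 20, −0.20 at 25, −0.38 at 30, −0.49 at 40, −0.46 at 60, −0.63 at 90 and −0.38 at 120 min. The Myc level there was 0.24, 0.08, 0.01, 0.29, 0.34, 0.22, 0.32 and 0.32. The groups did not overlap here either. The mean difference was −0.56 ± 0.30 (SD over 8 times) at MFA2 and −0.50 ± 0.15 at STE2. All HA levels lay below all Myc levels at 13.3% of TFIIA sites, and the 2 of 5 members with this separation are read against that share.

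The other TFIIA members overlapped between the tags. STE6, the transporter that exports a-factor, had HA levels from −0.23 to 0.14 (median −0.08) and Myc levels from −0.32 to −0.19 (median −0.26). MFA1, the other a-factor gene, had HA levels from −0.33 to 0.21 (median 0.01) and Myc levels from −0.21 to 0.17 (median 0.09). AGA2, the binding subunit of the a-agglutinin with which a cells adhere to alpha cells, had HA levels from −0.23 to 0.17 (median −0.06) and Myc levels from −0.21 to 0.01 (median −0.14).

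**Figure D4:**
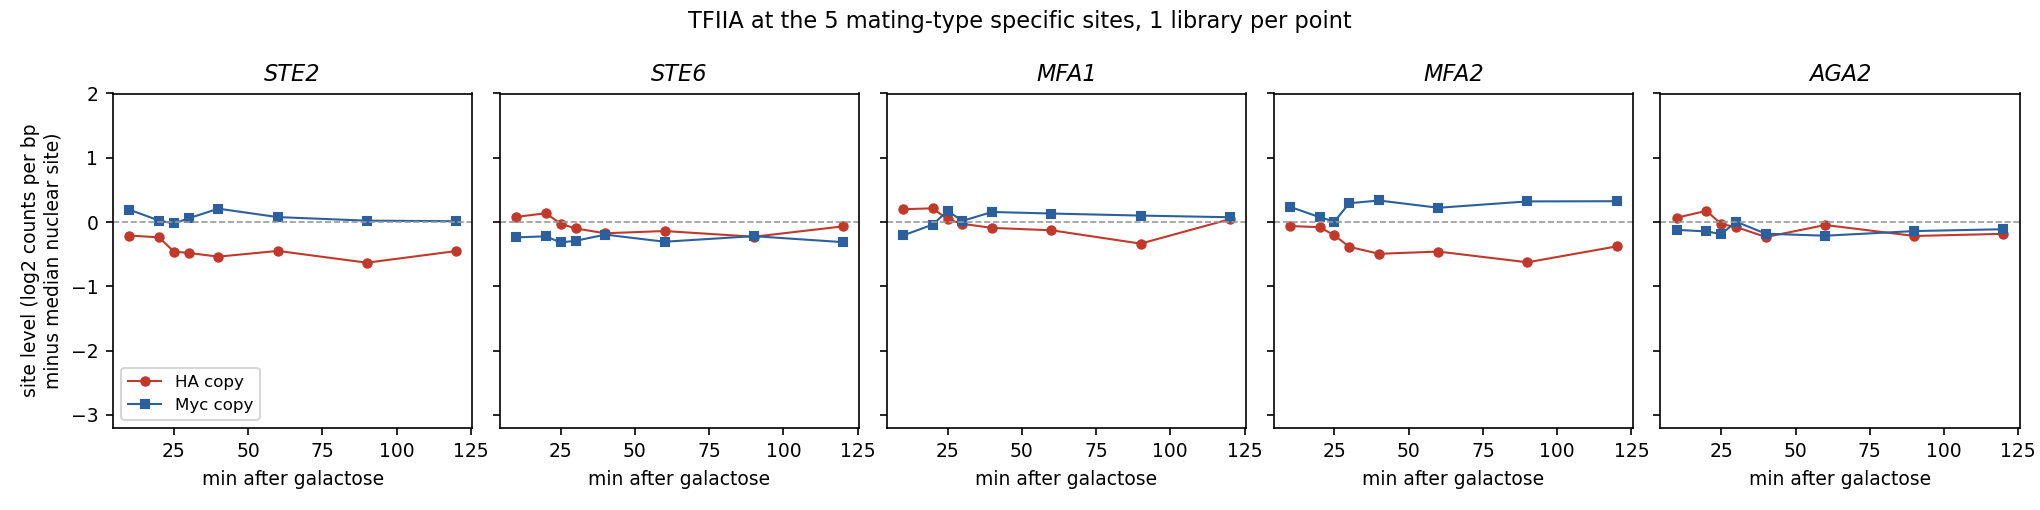
TFIIA site level (y axis, log2 counts per bp minus the median nuclear site, same range as for TFIIB) against time after galactose (x axis, min) at STE2, STE6, MFA1, MFA2 and AGA2, HA copy in red circles and Myc copy in blue squares, 1 library per point. All points lie between −0.63 and 0.34, and the tags separate at STE2 and MFA2.

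By edgeR the TFIIA ratio fell at MFA2, with a slope of −0.20 ± 0.05 (SE; adjusted p = 0.0278), where 17.0% of all TFIIA sites were called. All 5 ratio slopes were negative, from −0.20 to −0.07 with a median of −0.09 beside −0.01 over all sites, and the other 4 did not pass (MFA1 adjusted p = 0.0623, AGA2 0.171, STE6 0.252, STE2 0.324). The MFA2 call was lost under scaling by the total count (0.15), in linear time (0.113) and without the libraries of 10 min (0.0923), 20 min (0.0738), 60 min (0.0542) or 90 min (0.118). Scaling by the total count turned the ratio slopes of STE2, STE6 and AGA2 positive, to 0.03, 0.03 and 0.01.

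The TFIIA HA slope was negative at all 5 members, with a median of −0.09 beside 0.00 over all sites. It passed at MFA2 (−0.13 ± 0.03, adjusted p = 0.0216), where 21.7% of all sites were called, and not at the others, whose adjusted p ran from 0.0668 to 0.134. The MFA2 call was lost under scaling by the total count (0.273), in linear time (0.175) and without 10 min (0.122), 20 min (0.0503) or 90 min (0.0859). No TFIIA Myc slope passed by edgeR among 5 tested, none had an unadjusted p under 0.05 and DESeq2 called none. By edgeR 0.407% of all sites were called, and 445 of 3685 had an unadjusted p under 0.05. The 5 Myc slopes ran from −0.03 to 0.07.

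MFA2 and STE2 had a site in both tables. For MFA2 the mean HA level minus the mean Myc level was −0.56 in TFIIA and −1.77 in TFIIB, and for STE2 it was −0.50 and −1.92. The 2 factors were followed in different strains and their libraries spread sites differently, so these values are set side by side and the difference between them was not tested.

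The other genes of the mating pathway came from lists by role, and their TFIIB sites were placed in the same order. Of all 4033 TFIIB sites, 3 were member sites and 23 were other listed sites. The lists were drawn up with earlier results of these data known, so the counts are a description. Sites were ordered by mean HA level minus mean Myc level, from the lowest. The members or the listed mating genes held 8 of the lowest 10, 10 of the lowest 12 and 10 of the lowest 20. STE2, whose values chose the genes, was among them. The lowest was MF(ALPHA)1, the main alpha-factor gene, at −3.38, followed by FAR1, which arrests the cell cycle in response to pheromone, at −2.35. After the 3 members came GPA1, the alpha subunit of the pheromone-receptor G protein, at −1.40, the alpha-agglutinin gene SAG1 at −1.26, the agglutinin anchor gene AGA1 at −1.25, the pheromone-desensitizing gene SST2 at −1.17 and the minor alpha-factor gene MF(ALPHA)2 at −1.13. The remaining 2 of the lowest 12 had no gene start in the window. The nearest start to the first of them, at −2.13, was that of MF(ALPHA)1, 834 bp downstream. The nearest start to the second, at −1.34, was that of TIM10, 402 bp away, a gene that is not in the lists. The next site in order, rank 13, was at AFB1 (−1.12), which was not in the lists and is named after its value was seen.

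The groups can be compared by their counts. HA lay below all Myc levels from 20 to 120 min at 3 of 3 other alpha-specific sites and at 2 of 2 haploid-specific sites (FAR1 and GPA1), where the background is 1.93%. It did so at 1 of 4 other pheromone-induced sites, at 1 of 8 sites of mating genes expressed in every cell type, at 0 of 3 sites of the regulators MCM1, TUP1 and CYC8 and at 0 of 3 mating-type locus sites. With the 10 min libraries included, the counts were 1 of 3 other alpha-specific and 1 of 2 haploid-specific sites. They were then 0 of 4 for the other pheromone-induced sites and 1 of 8 for genes expressed in every cell type. The regulators and the mating-type loci stayed at 0 of 3 each. The background over these 8 times is 1.19%, so the groups differed less over the full course. The median difference was −1.26 for the other alpha-specific sites, −1.88 for the haploid-specific sites, −0.67 for the pheromone-induced sites, −0.14 for genes expressed in every cell type and 0.30 for the regulators. STE7, a kinase of the pheromone cascade that every cell type makes, was at rank 65 with −0.61. The lists of mating genes share sequence among MAT, HML and HMR, so reads of those loci cannot be assigned with certainty.

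**Figure D5:**
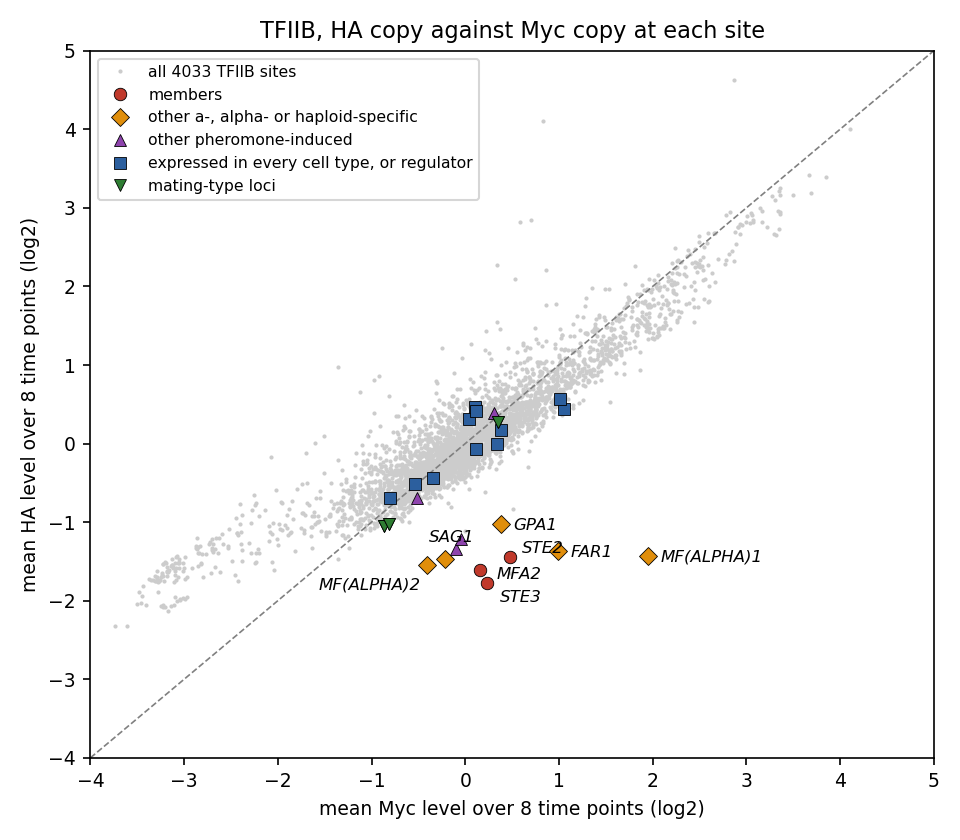
Mean TFIIB HA level (y axis, log2) against mean Myc level (x axis, log2) over 8 time points for all 4033 sites (gray points) with the mating genes marked by group; the dashed line marks equal levels. The 3 members, FAR1, GPA1, the alpha-specific genes and the pheromone-induced AGA1 and SST2 lie below the body of sites. The pheromone-induced PRM1 and KAR4, genes expressed in every cell type, the regulators and the mating-type loci lie within it.

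The diploid label can be set against these values. In the TFIIB Myc libraries the alpha-specific MF(ALPHA)1 site was between levels 1.24 and 2.57, at percentiles 91.5 to 97.5, and was already at 1.36 before galactose was added. In the HA libraries it was between −1.90 and −0.43. Over the listed alpha-specific sites the mean TFIIB Myc level was 1.95 at MF(ALPHA)1, 0.23 at STE3, −0.21 at SAG1 and −0.41 at MF(ALPHA)2, and over the haploid-specific sites it was 0.99 at FAR1 and 0.38 at GPA1. The a-specific sites were at 0.15 for MFA2 and 0.47 for STE2, whose values chose the genes. Sites were called on early Myc libraries, so a gene has a level here only if it had a called site. This held for 2 of 10 listed haploid-specific genes and 2 of 6 a-specific members. The others had no TFIIB site in the window. At 0 min STE3 was at −0.14, STE2 at −0.28 and MFA2 at 0.05. The mean TFIIB HA level was −1.36 at FAR1 and −1.02 at GPA1. In the TFIIA strain the mean Myc level was below the typical site at all 6 haploid-specific sites, from −0.33 at FUS3 to −0.04 at STE18. There the 5 a-specific member sites had a median of 0.05. In TFIIE the haploid-specific RME1 had a mean Myc level of −0.32. The tables cannot settle whether the TFIIB culture was wholly diploid. MF(ALPHA)1 also had a TFIIE site, which was at rank 1 from the lowest of 4419 nuclear TFIIE sites in the same measure, with a mean difference of −1.34 (mean HA level −1.37, mean Myc level −0.03).

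Of the 23 other listed TFIIB sites, 3 were called in the Myc slope and 2 in the HA slope, beside 20.2% and 8.7% of all sites in either direction. Neither share was above that of all sites. Myc rose at FAR1 and GPA1 (0.51 ± 0.13, adjusted p = 0.0114, and 0.31 ± 0.09, adjusted p = 0.0239). SAG1 had a falling HA slope (−0.63 ± 0.14, adjusted p = 0.0126), as did HMRA1, with HMRA2 on the same site (−0.27 ± 0.07, adjusted p = 0.0231), and RAM1, a farnesyltransferase subunit that processes a-factor, had a falling Myc slope (−0.25 ± 0.08, adjusted p = 0.0336). No ratio slope of the 23 other listed TFIIB sites was called by edgeR, where 1.21% of all sites were. An unadjusted p under 0.05 was found at 4 of them, beside 681 of all 4033 sites. DESeq2 called 2, and its share of all sites is not given here. Mean Myc levels past 1 on either side in the listed genes were those of MF(ALPHA)1 (1.95), STE7 (1.05) and STE24 (1.01) in TFIIB and of HMLALPHA1 (−1.03) in TFIIE.

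Over the 20 other listed sites of TFIIA, the ratio fell at FAR1 (−0.25 ± 0.05, adjusted p = 0.0126) and NEJ1 (−0.19 ± 0.05, adjusted p = 0.0241), both haploid-specific, and rose at STE7 (0.13 ± 0.04, adjusted p = 0.0361) and STE24 (0.13 ± 0.04, adjusted p = 0.0351), which every cell type expresses. HA fell at FAR1, NEJ1 and the G protein beta subunit gene STE4 and rose at PRM1. The haploid-specific list thus had 2 of 6 sites falling in the ratio and 3 of 6 in HA, beside 17.0% and 21.7% of all sites in either direction. Its median ratio slope was −0.11. All TFIIA HA levels lay below all Myc levels at 2 of 9 sites of genes expressed in every cell type, 1 of 2 regulator sites and 1 of 6 haploid-specific sites. The counts were 0 of 2 for the pheromone-induced sites and 0 of 1 for the mating-type loci. These stand beside 13.3% of all sites and 2 of 5 members. The mean difference of HA from Myc was −0.57 at STE7, beside −0.56 at the member MFA2. No other listed TFIIA Myc slope was called by edgeR, where 0.407% of all sites were. An unadjusted p under 0.05 was found at 1, beside 445 of all 3685 sites, and DESeq2 called 1.

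TBP, TFIIE and TFIIF had no member site, and only the other listed genes could be read there. In TBP, 0 of 16 sites were called by edgeR in the ratio, Myc or HA slope, with 1, 5 and 2 at an unadjusted p under 0.05, where 7.89%, 2.26% and 16.1% of all sites were called. Over all 4385 TBP sites, 1076, 735 and 1265 had an unadjusted p under 0.05. In TFIIF, 0 of 16 were called in the ratio and 0 in Myc, with 5 and 1 at an unadjusted p under 0.05, and 4 in HA (PRM1 and KSS1 rose, STE11 and RAM1 fell), where 36.5%, 0.766% and 43.2% of all sites were called. Over all 3656 TFIIF sites, 1688 in the ratio and 574 in Myc had an unadjusted p under 0.05. In TFIIE, 12 of 19 were called in the ratio, 14 in Myc and 1, STE7, in HA, where 60.3%, 60.3% and 6.82% of all sites were called. The share called in the ratio was near that of all sites, so the genes are named only as a description. The TFIIE ratio fell at MF(ALPHA)1 (−0.54 ± 0.10, adjusted p = 0.000796), RME1, KAR4, STE11, KSS1, STE14, HMLALPHA1 and HMRA1 and rose at PRM1, STE20, MCM1 and CYC8. The spread of levels over all sites (SD) was 0.66 in the TFIIE Myc library at 10 min and 0.32 at 120 min. Its part in these slopes was not tested. DESeq2 was not run for these 3 factors.

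Likeness to the STE2 site was measured as the Pearson correlation of site level over the 16 TFIIB libraries from 10 to 120 min, among 3548 other sites with a gene and a mean of at least 50 counts. The 5 highest were MFA2 (r = 0.93), FAR1 (0.92), STE3 (0.91), the tryptophan synthase gene TRP5 (0.90) and CDC1 (0.88). By Spearman rho these genes had ranks 5, 6, 6, 1 and 14. Within the 8 HA libraries r was 0.69, 0.58, 0.76, 0.60 and 0.70 in the same order, and within the 8 Myc libraries it was 0.90, 0.98, 0.58, 0.86 and 0.61, so the pooled values also hold the offset between the tags. The points are 2 time courses of 1 culture whose HA and Myc libraries stand apart at these sites, so no p is given. The reference is the STE2 series whose values chose the genes, so the order is a description.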

How the data were processed

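The authors mapped reads to sacCer3 with Bowtie2 2.2.6, called peaks with MACS2 2.1.0.20151222 on early Myc libraries against input, merged them per factor and counted reads per site with bedtools, so the deposited values are raw counts with no scaling. The tables held 81 count columns of 95 samples, while the remaining 14 samples (inputs and further 0 min Myc libraries) were left out. The paper itself scaled HA counts by protein levels from Western blots and estimated residence times. Neither step was taken here, where the raw counts alone were used.

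The genes and lists were chosen with earlier results of these data known. Gene starts were taken from R64. Levels used a pseudocount of 0.5 counts and the median of nuclear sites. Slopes were fitted with edgeR 4.0.16 (R 4.3.3, TMM scaling, quasi-likelihood test) on sites with a mean of at least 10 counts. For the ratio, 16 libraries were modeled by time point (a block), tag, and tag by log2(time), with 6 residual degrees of freedom, and Myc or HA counts alone were fitted on log2(time). Benjamini-Hochberg adjustment ran over every site of the factor, and 0.05 was the threshold. Each share of all sites called in a slope is that of the main edgeR setting. The fits were tested on simulated data. Genes named were the members, listed genes past the threshold or past a mean Myc level of 1 on either side, and the 5 genes most like STE2. The lists also held genes with no site in a window, which have no value here. Alternatives were DESeq2 1.42.0 size factors or Wald test, total-count scaling, a loess offset (limma 3.58.1), no count filter, linear time, no time block, a window from 250 bp upstream to 100 bp downstream, each time point left out, a pseudocount of 5, counts per site, TMM-scaled CPM and Spearman rho. Python 3.11.15 with pandas 2.3.3, Biopython 1.88 and matplotlib 3.10.9 was used.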

Additional observations from a re-analysis of the deposited data

Results flagged for a closer look

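Each of the 16 groups of 8 libraries (8 member sites and 2 tags) was examined for a library far from the rest, and chance gives such a library in about 1 in 20 groups. The TFIIB HA level of MFA2 at 10 min, −0.22, stood apart from its nearest neighbor at −1.56, a gap of 0.67 of the whole range. The spread of levels in that library was the narrowest of the TFIIB libraries. Without the 10 min libraries the ratio slope of MFA2 in TFIIB was −0.23 (adjusted p = 0.557) in place of −0.56, and its HA slope was −0.0097 in place of −0.36. The TFIIA Myc level of AGA2 at 30 min, 0.0058, stood apart from its neighbor at −0.11, a gap of 0.54 of the range. The TFIIA slopes of HA and Myc at MFA2 differed by −0.20, by the tag by time term of the edgeR fit (adjusted p = 0.0278).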

How the results depend on the processing

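Among the 7 member sites tested, 1 fell in the HA/Myc ratio, 2 fell in HA and none rose in Myc. The ratio count was 0 under total-count scaling and in linear time, 3 with a loess offset, 4 with the DESeq2 Wald test, 2 without the time block, and 0 to 3 with a time point left out. The HA count was 1 under total-count scaling, 0 in linear time, 4 with the DESeq2 Wald test and 0 to 5 with a time point left out. The Myc count was 1 with DESeq2 size factors, the loess offset and the DESeq2 Wald test, and 0 to 1 with a time point left out. The share of all sites called under each alternative is not given here. These counts therefore show only how the calls depend on the setting. The mean HA minus Myc level of TFIIB ran from −2.27 to −1.69 at STE2, −2.05 to −1.63 at MFA2 and −2.33 to −1.85 at STE3 over the times left out. Slopes that changed sign were not past the threshold in either setting. Under total-count scaling these were the TFIIA ratio slopes of STE2 (0.030), STE6 (0.025) and AGA2 (0.0068) and the HA slope of STE6 (0.011). The Myc slopes of STE6 (0.0021 with the loess offset), AGA2 (0.0012 and 0.0017 without 30 or 60 min, from −0.017 to 0.0017 over the times left out) and STE3 in TFIIB (−0.057 without 10 min, from −0.057 to 0.15) also changed sign. Counts per site turned the mean TFIIA level positive for STE2 HA (0.80), STE6 Myc (0.95) and MFA2 HA (0.12), as these sites are wider than the typical site. The cause of the other changes was not tested. With 1 library per time point, counting error and scatter between libraries were not compared.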
